A study of Homo sapiens with 10 samples.

Results

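OVMANA and OVTOKO, a pair of established human ovarian cancer cell lines known as clear cell carcinoma lines, were compared directly in 2 of the 10 nanopore libraries of the series. Each line had 1 library run on the PromethION, an instrument that reads single molecules through protein pores, and no treatment is given for either line. The 2 PromethION libraries of another ovarian cancer line, IGROV-1, served as the replicate background. Per the labels' protocols, RNA of all lines was purified with the same column kit and libraries were made with the same ligation kit. The labels name the lines without a histology, and nothing in them says that the IGROV-1 replicates came from separate cultures, so their spread may be technical. The OVMANA library held 1871485 counts and the OVTOKO library 1729782, against 2341102 and 2328087 in the IGROV-1 replicates. With 1 library per line, a difference between OVMANA and OVTOKO has no replicate check of its own.

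Clear cell carcinoma is an ovarian cancer subtype that often arises from endometriosis. It is known for the protease napsin A (NAPSA), for glycogen-filled cytoplasm, and for frequent loss of ARID1A, a subunit of the SWI/SNF chromatin remodeller. WT1, by contrast, marks serous tumours. Carcinoma cells in culture differ in how epithelial they are. Keratins, claudins and E-cadherin (CDH1) mark the epithelial end, and vimentin (VIM), the repressor ZEB1 and collagen-modifying enzymes mark the mesenchymal end.

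Both lines were checked against their markers first. WT1 had 0 counts in both, where 0 allows up to 3 counts, or 1.6 CPM (the gene's count scaled by the library's total) in OVMANA and 1.73 CPM in OVTOKO. NAPSA was at 1739 CPM in OVMANA and at 1 count, 0.578 CPM, in OVTOKO, so this marker went against the subtype that OVTOKO is known for. It is 1 of 18 listed clear cell markers with an identifier of their own. Of these, 13 reached 10 CPM in OVMANA and 12 in OVTOKO, against 7 in each IGROV-1 replicate, and 4 had 0 counts in OVTOKO. Markers of leukocytes, endothelial cells, erythroid cells and fibroblasts summed to at most 2.14 CPM per list in either line, and 0 of them reached 10 CPM. The share of counts from the mitochondrial genome was 2.82% in OVMANA and 4.46% in OVTOKO.

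The expression of OVMANA and OVTOKO differed at many genes. Of 8804 genes with at least 10 CPM in either line, 1082 (12.3%) differed at least 4-fold on the log2(CPM + 1) scale. OVMANA was the higher line for 538 (6.11%) and OVTOKO for 544 (6.18%). The same rule called 3 of 8199 genes (0.0366%) between the IGROV-1 replicates, namely THBS1, NPPC and PRRX2. The median absolute log2 ratio was 0.65 between the lines and 0.19 between the replicates, and the 99th percentiles were 5.96 and 1.04. All 1082 ratios were larger than the ratio of the same gene between the replicates. Since the 1082 were chosen at 4-fold or more, this could hardly have come out otherwise. Adding 1 CPM to both values understates the ratio of genes with low levels.

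**Figure D1:**
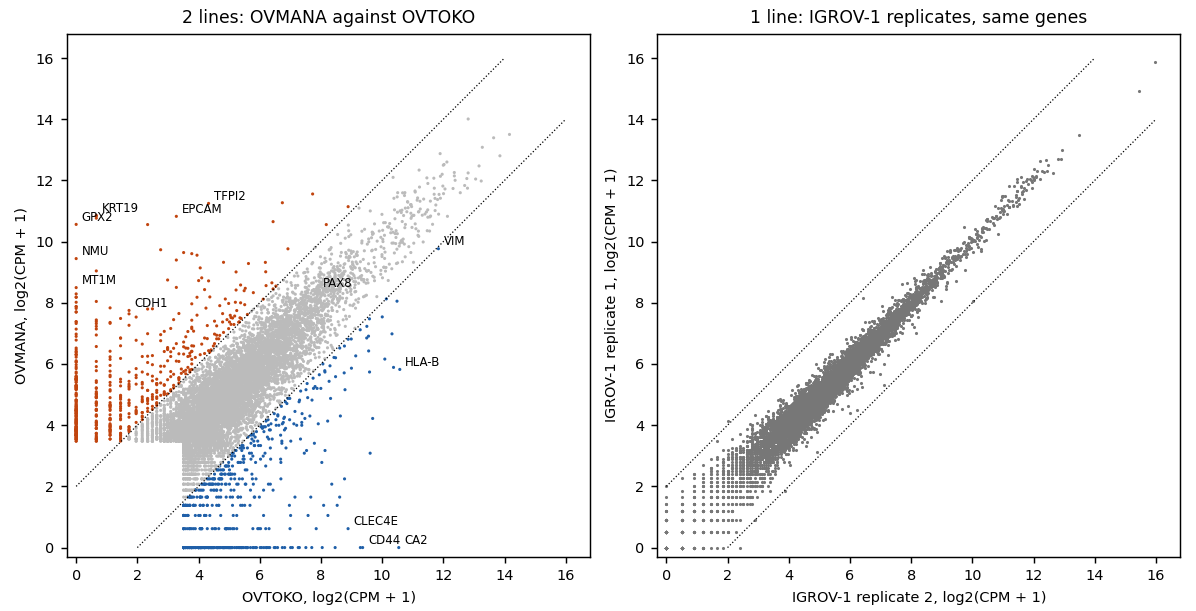
Level of each of 8804 genes in OVMANA (vertical) and OVTOKO (horizontal) on the left, and of the same genes in IGROV-1 replicate 1 (vertical) and 2 (horizontal) on the right, all as log2(CPM + 1). Each point is 1 gene, dotted lines mark a 4-fold difference, and the 538 genes higher in OVMANA (orange) and 544 higher in OVTOKO (blue) lie outside the lines on the left, while nearly all points lie between them on the right.

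A test that borrows its spread from the replicates was also fitted to all genes. It was edgeR's quasi-likelihood test over all 10 libraries, whose spread comes from the IGROV-1 pairs (2 residual degrees of freedom). The unreplicated libraries were taken to vary as those pairs do. It called 3249 of 13030 genes (24.9%) at an adjusted p under 0.05, of which 1641 (12.6%) were higher in OVMANA and 1608 (12.3%) in OVTOKO. Of the 1082 genes that differed 4-fold, 1069 (98.8%) were among them, and all 1082 had the same sign. The test compares the same 2 libraries that the fold rule used, so this overlap is no separate check. The number called by edgeR moved with the libraries fitted. It was 1114 without MinION replicate 1 and 1721 without MinION replicate 2 of IGROV-1, and 2092 on the 8 PromethION libraries alone. DESeq2's Wald test called 742 of 10251 genes.

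Over the 13515 genes that averaged 1 CPM or more, the Spearman correlation of OVMANA with OVTOKO was 0.816. It ranked second among the 27 PromethION library pairs from different lines, in which IGROV-1 counts with both libraries. They ran from 0.709 to 0.863, and the IGROV-1 replicates had 0.984. Each was the other's nearest line by this measure. With no filter on low genes the pair ranked 6 of 27, and the nearest line to OVTOKO was SK-OV-3, at 0.862 against 0.86 for OVMANA. The coefficients are descriptions over genes of the same libraries and carry no p-value.

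The genes with the largest differences in favour of OVMANA covered secreted proteins, an antioxidant enzyme and an epithelial keratin. GPX2, a selenium-dependent glutathione peroxidase of gut-type epithelium, was at 1511 CPM in OVMANA and 0 in OVTOKO, at least 871-fold higher against a floor of 3 counts in the OVTOKO library. It was at 0.854 and 0.859 CPM in the IGROV-1 replicates and at 0 in the 4 other lines, so OVMANA stood alone among the 8 PromethION libraries. APOE, the lipid carrier apolipoprotein E, was at 1848 CPM against 1 count, a ratio of 3197 (95% interval 573 to 126315, exact, counting error only). KRT19, an epithelial keratin, was at 1833 CPM against 1 count, a ratio of 3171 (569 to 125292). Unlike GPX2, KRT19 was found in all other lines, at 136 to 1506 CPM in the 4 lines and 140 and 176 CPM in IGROV-1, so OVTOKO was the line that stood apart.

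NMU, the neuropeptide neuromedin U, was at 696 CPM in OVMANA and 0 in OVTOKO, and the 4 other lines had 49.8 to 401 CPM. DEFB1, an antimicrobial beta-defensin, was at 1505 CPM against 4.05 CPM, and OVKATE also had it, at 1589 CPM. DPP4, a surface peptidase, was at 312 CPM against 0, with 237 and 130 CPM in IGROV-1. MT1M, a metallothionein whose close copies could share its reads, was at 360 CPM against 0. LGI2, CDKN2A, TIMP3 and IGFBP4 completed the 12 largest ratios among single protein-coding genes at 50 CPM or more. They were at 290, 289, 258 and 235 CPM in OVMANA, each with 0 counts in OVTOKO. CDKN2A encodes the cell cycle inhibitor p16, and it was also at 0 in COV504 and at 435 CPM in COV362. In all, 33 single genes at 50 CPM or more in OVMANA had 0 counts in OVTOKO.

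In the other direction the largest differences included a surface receptor for hyaluronan, a claudin and lectin and complement genes. CA2, cytosolic carbonic anhydrase, was at 1491 CPM in OVTOKO and 0 in OVMANA, at least 930-fold higher. The IGROV-1 replicates had 1048 and 1326 CPM of CA2 and the 4 other lines 18.8 to 867 CPM, so OVMANA was the exception. CD44, the hyaluronan receptor, was at 657 CPM in OVTOKO and 0 in OVMANA, at least 410-fold higher. It was also at 0 in OVKATE, at 22.2 and 52.8 CPM in IGROV-1, and at 427 to 635 CPM in the remaining 3 lines. CLDN2, a claudin that forms cation pores in tight junctions, was at 624 CPM in OVTOKO, 0 in OVMANA and at most 1.78 CPM elsewhere. CLEC4E, a C-type lectin receptor known from macrophages, was at 472 CPM in OVTOKO, 1 count in OVMANA and 0 in the 6 other PromethION libraries.

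CFI, the protease complement factor I, was at 352 CPM in OVTOKO and 0 in OVMANA. GAL3ST1, which adds sulfate to galactosylceramide, was at 207 CPM, IGFBP1, a secreted binder of insulin-like growth factors, at 156 CPM, and LY6K at 181 CPM, each with 0 counts in OVMANA and at most 4.05 CPM in any other line. CSRP2 at 262 CPM and TGFBI, a matrix protein, at 152 CPM in OVTOKO likewise had 0 counts in OVMANA. FHL2 and TPM2, which encode proteins of the actin cytoskeleton, were at 229 and 299 CPM in OVTOKO and at 1 and 2 counts in OVMANA. In all, 28 single genes at 50 CPM or more in OVTOKO had 0 counts in OVMANA. OVMANA was the highest of the 8 PromethION libraries for 279 of its 538 genes (51.9%), and OVTOKO for 286 of its 544 (52.6%). Each set was chosen with its line at least 4-fold above the other, so high shares of top ranks are partly built in. In the 5 other lines, 104 and 98 of these genes stayed below 10 CPM. The same shares over all genes are not given here, so these counts have no background.

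Epithelial genes were higher in OVMANA. Of 30 listed, 21 reached 10 CPM and 16 were at least 4-fold higher in OVMANA, 0 in OVTOKO, against 6.11% of all genes. The median log2 ratio of the 21 was 5.30, against 0.05 over all 8804 genes. In OVTOKO, 10 of the 16 were at 3 counts or fewer, as were 301 of all 538 genes higher in OVMANA. EPCAM, an epithelial adhesion molecule, was at 1814 CPM in OVMANA and 8.67 CPM in OVTOKO, a ratio of 209 (127 to 374). The IGROV-1 replicates had 0.854 and 0.43 CPM of it and the 4 other lines 45.6 to 817 CPM. CDH1, the junction protein E-cadherin, was at 214 CPM against 2.31 CPM, with 0 in both IGROV-1 replicates. ST14, the membrane protease matriptase, was at 159 CPM against 0, and CLDN4 at 149 CPM against 1 count. ESRP1 and ESRP2, RNA-binding proteins that direct exon choice in epithelial cells, were picked once their values were known. ESRP1 was at 87.1 CPM and ESRP2 at 25.1 CPM in OVMANA, and both had 0 counts in OVTOKO.

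Not every epithelial gene followed. KRT8 and KRT18, the paired keratins of simple epithelia, were at 325 and 856 CPM in OVMANA and 134 and 315 CPM in OVTOKO, and MAL2, a transport protein of polarised cells, was at 448 and 598 CPM. These genes were named after their values were seen, and none of them reached 4-fold. KRT18 also differed almost 4-fold between the IGROV-1 replicates, at 263 and 1041 CPM.

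**Figure D2:**
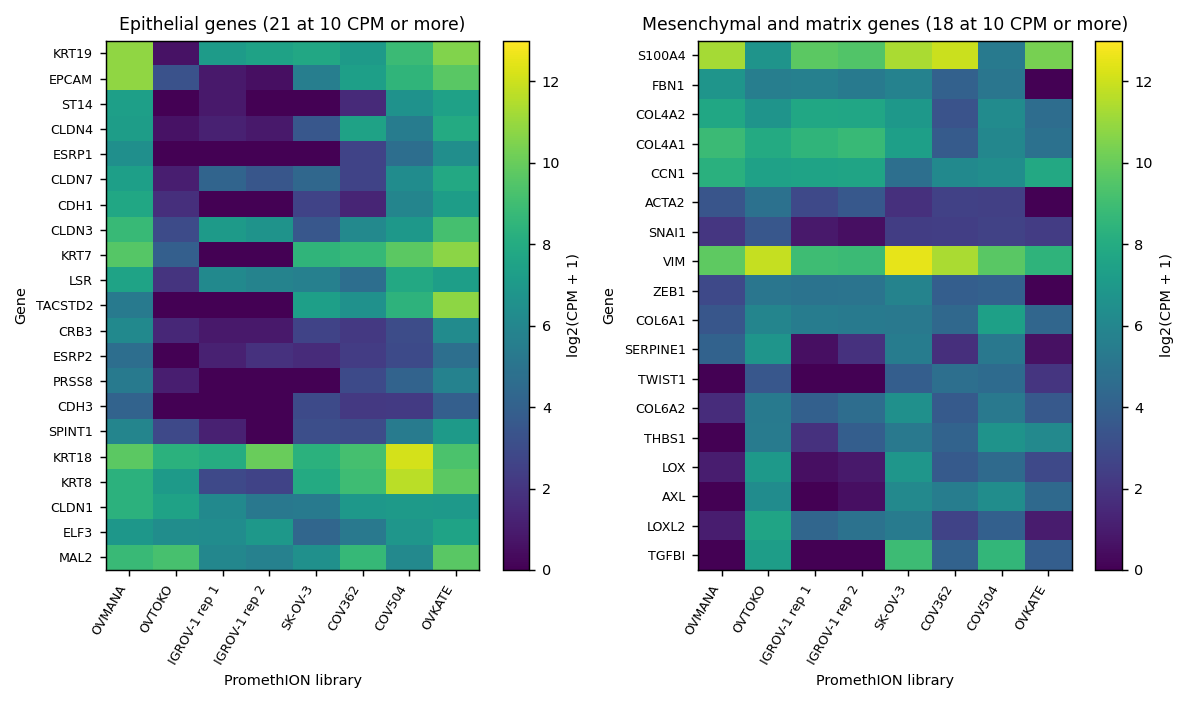
Levels of the 21 epithelial genes (left) and 18 mesenchymal and matrix genes (right) at 10 CPM or more in OVMANA or OVTOKO, as log2(CPM + 1) in colour, with 1 row per gene, ordered by the log2 ratio of OVMANA over OVTOKO, and 1 column per PromethION library. Most of the epithelial column of OVTOKO is dark where that of OVMANA is bright, and IGROV-1 is dark for EPCAM, ST14, CDH1 and KRT7 as well.

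Mesenchymal and matrix genes mostly went the other way. Of 39 listed, 18 reached 10 CPM, 11 were at least 4-fold higher in OVTOKO (6.18% of all genes were) and 1 in OVMANA, with a median log2 ratio of -2.32. VIM, the intermediate filament of mesenchymal cells, was at 870 CPM in OVMANA and 3663 CPM in OVTOKO, a ratio of 4.21 (3.99 to 4.45), just past the threshold. Vimentin was at 505 and 457 CPM in the IGROV-1 replicates, and SK-OV-3 exceeded OVTOKO with 5964 CPM. LOX and LOXL2, enzymes that cross-link collagen, were at 128 and 190 CPM in OVTOKO and 2 counts each in OVMANA. AXL, a receptor tyrosine kinase, was at 79.2 CPM in OVTOKO and 0 in OVMANA. THBS1 was also higher in OVTOKO, but it was among the 3 genes that passed the same rule between the IGROV-1 replicates. The member at least 4-fold higher in OVMANA was S100A4, a calcium-binding protein often used as a mesenchymal marker, at 2468 CPM in OVMANA and 106 CPM in OVTOKO, a ratio of 23.3 (20.1 to 27.2). By edgeR's test 5 members were higher in OVMANA and 15 in OVTOKO, of 36 tested, beside 12.6% and 12.3% of all genes. The 5 included the basement membrane collagen genes COL4A1, at 463 and 243 CPM, and COL4A2, at 213 and 107 CPM, and FBN1, the fibrillin gene, at 108 and 46.8 CPM, named after their values were seen. CDH2, SNAI2 and ZEB2, mesenchymal regulators and the N-cadherin gene, had 0 counts in both lines. ZEB1, chosen after its values were seen, was at 6.41 CPM in OVMANA and 33 CPM in OVTOKO.

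Markers of clear cell carcinoma were shared in part. Of 20 listed, 15 reached 10 CPM, 5 were at least 4-fold higher in OVMANA and 0 in OVTOKO (6.11% and 6.18% of all genes), and the median log2 ratio was 0.62. Besides NAPSA and DPP4, the 5 included TFPI2, an inhibitor of coagulation proteases, at 2431 CPM in OVMANA and 19.1 CPM in OVTOKO. They also held CRYAB, a small heat shock protein, at 87.6 against 6.94 CPM, and GPX3, the secreted glutathione peroxidase, at 336 against 43.9 CPM. ANXA4, an annexin abundant in this subtype, was 2.46-fold higher in OVTOKO, at 1960 against 798 CPM, short of 4-fold but past edgeR's test (adjusted p = 0.00659). ARID1A transcripts were at 46.5 and 26.6 CPM in OVMANA and OVTOKO, and the protein was not measured.

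A list of Müllerian and serous carcinoma markers, which holds lineage factors and tumour antigens, had 4 of the 6 members that reached 10 CPM (16 listed) higher in OVMANA and 0 in OVTOKO, where 6.11% and 6.18% of all genes were. MSLN, mesothelin, was at 207 CPM against 0. FOLR1, the folate receptor alpha, was at 778 CPM against 12.7 CPM, and SOX17 at 79.1 against 10.4 CPM. MUC16, which carries the CA-125 antigen, was at 13.4 CPM against 0, near the minimum, and fell short of 4-fold with 5 CPM added. PAX8, the lineage factor of these tissues, was at 340 and 234 CPM and passed neither rule (adjusted p = 0.207 in edgeR's test).

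Immune-related genes were called in both directions. In the list of chemokines and NF-kB response genes, 27 of 42 reached 10 CPM, 5 were higher in OVMANA and 9 in OVTOKO (6.11% and 6.18% over all genes), with a median log2 ratio of -0.08. CXCL5, a neutrophil chemokine, was at 3010 CPM in OVMANA and 211 CPM in OVTOKO, a ratio of 14.3 (12.8 to 15.9), and at most 34.7 CPM in any other line. LCN2, the iron-carrier binder lipocalin 2, was at 87.9 CPM in OVTOKO and 0 in OVMANA. SAA1, an acute phase protein with a close copy that could share reads, was at 260 against 5.88 CPM, and ICAM1, an adhesion molecule for leukocytes, at 175 against 7.48 CPM. CX3CL1 was at 41 CPM in OVTOKO and 0 in OVMANA, and CCL20 at 17.1 CPM in OVMANA and 0 in OVTOKO. IL6, named after its values were seen, was at 91.9 and 67.6 CPM, and at most 2.67 CPM in any other line.

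Among interferon-stimulated and MHC class I genes, 31 of 46 reached 10 CPM, with 3 higher in OVMANA and 4 in OVTOKO, beside 6.11% and 6.18% of all genes, and a median log2 ratio of -0.05. HLA-B, a classical class I gene whose product presents peptides to T cells, was at 55.6 CPM in OVMANA and 1526 CPM in OVTOKO, a ratio of 27.5 (22.6 to 33.7). Both IGROV-1 replicates lay between, at 124 and 126 CPM, and the 4 other lines had 457 to 1661 CPM. HLA-F was at 1.6 against 42.2 CPM, and PSMB8, an immunoproteasome subunit, at 49.2 against 246 CPM. HLA genes are near-identical copies that vary between lines, so how reads were split among them is uncertain. B2M, the invariant partner chain, named after its values were seen, was at 552 and 1273 CPM. ISG15, a ubiquitin-like interferon response protein, went the opposite way at 514 CPM in OVMANA and 36.4 CPM in OVTOKO, as did MX1, an antiviral GTPase, at 28.9 against 1.73 CPM and OASL at 10.7 CPM against 0. OASL fell short of 4-fold with 5 CPM added.

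Redox genes were called in both directions. In the iron and antioxidant list 29 of 35 reached 10 CPM, 8 were higher in OVTOKO and 3 in OVMANA (6.18% and 6.11% over all genes), with a median log2 ratio of -0.53. AKR1C1, an aldo-keto reductase that belongs to a cluster of near-identical genes, was at 779 CPM in OVTOKO and 7.48 CPM in OVMANA, and AKR1C3 at 166 against 19.8 CPM. ABCC3, an export pump for conjugates, was at 165 against 16 CPM. In OVMANA, besides GPX2, EPHX1, an epoxide hydrolase, was higher at 638 against 71.7 CPM, and SLC7A11, the cystine importer, at 15 CPM against 2 counts. SLC7A11 fell short of 4-fold with 5 CPM added.

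Hypoxia response genes had a median log2 ratio of -1.09. Of 22 listed, 19 reached 10 CPM, 5 were higher in OVTOKO and 1 in OVMANA, beside 6.18% and 6.11% of all genes. PLOD2, a collagen lysyl hydroxylase, was at 64.2 CPM in OVTOKO and 1 count in OVMANA, and DDIT4, an inhibitor of mTOR signalling, at 723 against 149 CPM. ADM and ANGPTL4 were at 31.8 and 23.1 CPM in OVTOKO and 4.27 and 2.14 CPM in OVMANA, and both fell short of 4-fold with 5 CPM added. EGLN3, an oxygen sensor, was the exception at 15.5 CPM in OVMANA and 0 in OVTOKO. The glycogen and glycolysis list had 1 called gene among 32 (12.3% over all genes), ALDOC, an aldolase, at 124 CPM in OVTOKO and 3 counts in OVMANA. Its median log2 ratio was -0.24. By edgeR's test, however, 12 of the 34 members tested were higher in OVTOKO and 2 in OVMANA, beside 12.3% and 12.6% of all genes tested. Of the 21 hypoxia response genes tested, 12 were higher in OVTOKO and 1 in OVMANA.

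**Figure D3:**
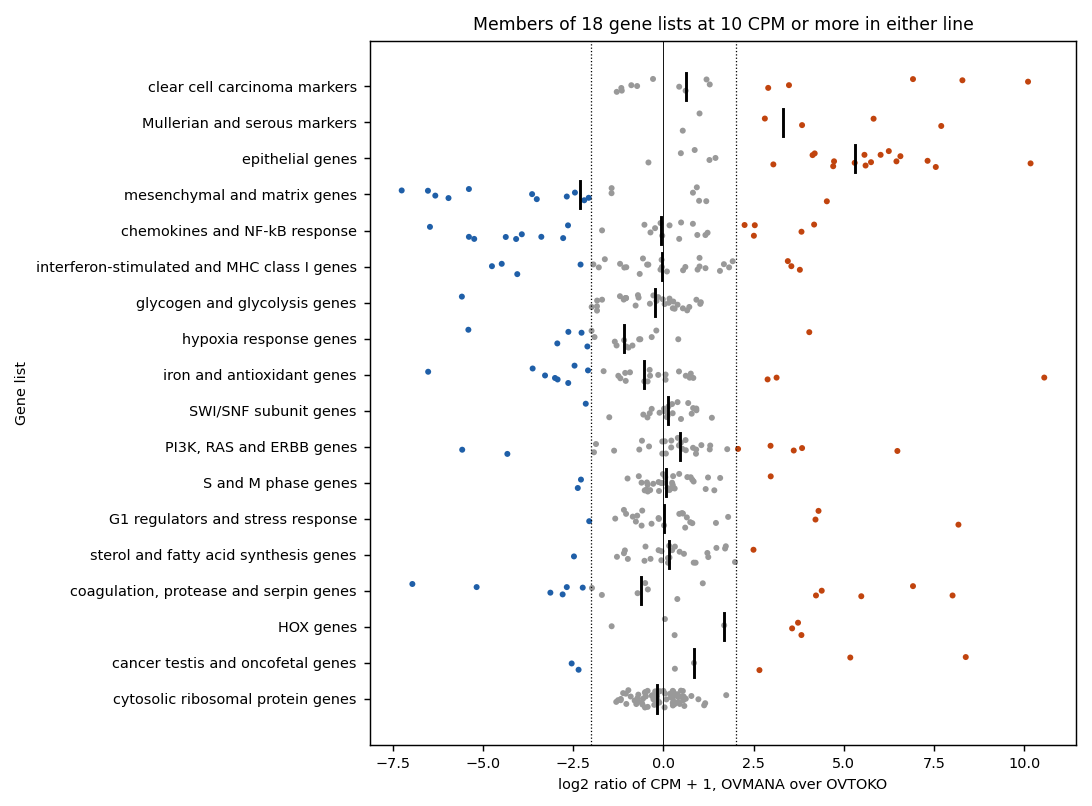
Log2 ratio of CPM + 1, OVMANA over OVTOKO, for the members of each of 18 gene lists that reached 10 CPM in either line. Each point is 1 gene, black bars mark the medians and dotted lines a 4-fold difference. The epithelial list has its median at 5.30 and the mesenchymal list at -2.32, while the ribosomal protein genes have theirs at -0.17, with 0 past the dotted lines.

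Ligands of the EGF receptor were among the growth factor genes that differed. In the PI3K, RAS and ERBB list 32 of 39 reached 10 CPM, with 5 higher in OVMANA and 2 in OVTOKO, the latter near the 6.18% of all genes and the former beside 6.11%. The median log2 ratio was 0.46. AREG and EREG, neighbouring genes for ligands of the EGF receptor, were at 140 and 152 CPM in OVMANA and at 1 count and 18.5 CPM in OVTOKO. TGFA, another ligand of that receptor, was at 46.8 CPM in OVTOKO and 0 in OVMANA. ERBB3 and IGF1R, receptor genes, were at 39.5 and 13.4 CPM in OVMANA and at 2.31 CPM and 0 in OVTOKO, and IGF1R fell short of 4-fold with 5 CPM added. DUSP4, a phosphatase that acts on ERK, was at 19.1 CPM in OVTOKO and 0 in OVMANA.

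Of 36 S and M phase genes at 10 CPM or more (38 listed), 1 was higher in OVMANA and 2 in OVTOKO, where 6.11% and 6.18% of all genes were, and the median log2 ratio was 0.08. CCNE1, cyclin E1, which drives entry into S phase, was at 79.6 CPM in OVMANA and 9.25 CPM in OVTOKO, a ratio of 8.61 (5.13 to 15.5). The highest of the other lines had 25.5 CPM. UHRF1 and GINS2, which act in DNA methylation and replication, were at 20.8 and 76.9 CPM in OVTOKO and 3.21 and 15 CPM in OVMANA, and UHRF1 fell short of 4-fold with 5 CPM added. Among 25 G1 regulators and stress response genes (29 listed) 3 were higher in OVMANA and 1, not reported here, in OVTOKO (6.11% and 6.18% over all genes), with a median of 0.02. GDF15, a stress-induced cytokine, was at 1608 against 85.6 CPM, and CCND2, cyclin D2, at 18.7 CPM against 0.

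Coagulation, protease and serpin genes were called in both directions, 5 of 18 in OVMANA and 6 in OVTOKO (33 listed, 6.11% and 6.18% over all genes), with a median log2 ratio of -0.61. The inhibitors of tissue factor were divided: TFPI2 was high in OVMANA as given among the clear cell markers, whereas TFPI was at 390 CPM in OVTOKO and 2.14 CPM in OVMANA. F3, tissue factor, was at 254 against 35.8 CPM, and F2R, a thrombin receptor, at 35.3 CPM against 0. PLAU, the protease urokinase, was at 510 against 57.2 CPM, but its IGROV-1 replicates had 21.8 and 74.3 CPM. SERPINA1, alpha-1-antitrypsin, and MMP14, a membrane metalloprotease, were higher in OVMANA at 43.8 CPM against 0 and 32.1 CPM against 1 count.

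Of 22 SWI/SNF subunit genes at 10 CPM or more (27 listed), SS18 alone was called (12.3% of all genes were in either direction), at 14.4 CPM in OVMANA and 67.6 CPM in OVTOKO, and the median log2 ratio was 0.13. SS18 fell short of 4-fold with 5 CPM added. Sterol and fatty acid synthesis genes had 1 call each way among 28 (31 listed, 6.11% and 6.18% over all genes) with a median of 0.16: STARD4, a cholesterol carrier, at 43.8 against 6.94 CPM, and ACSL1, an acyl-CoA synthetase, at 6.95 against 43.4 CPM. Of 72 cytosolic ribosomal protein genes (77 listed), 0 were called, where 12.3% of all genes were. By edgeR's test 5 were higher in OVMANA and 13 in OVTOKO, beside 12.6% and 12.3% of all genes tested. Among HOX genes, 3 of 7 at 10 CPM or more (39 listed) were higher in OVMANA (6.11% of all genes), namely HOXB2, HOXC10 and HOXD1 at 21.4, 12.3 and 24.6 CPM, each at 2 counts or fewer in OVTOKO. HOXC10 fell short of 4-fold with 5 CPM added. The cancer testis and oncofetal list had 3 of 7 higher in OVMANA and 2 in OVTOKO (40 listed, 6.11% and 6.18% over all genes). H19, an imprinted fetal RNA, was at 526 CPM in OVMANA and 1 count in OVTOKO, and MAGEA10, which has close copies, was at 35.3 CPM in OVMANA and 0 in the other PromethION libraries. IGF2BP1 was at 52.9 against 7.52 CPM, and PRAME and PEG10 were at 223 and 181 CPM in OVTOKO against 37.4 and 34.7 CPM.

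The ratio also varied by chromosome. The median log2 ratio ran from -0.72 on chromosome 18 (105 genes) to 0.50 on chromosome 19 (489 genes), whereas the same medians between the IGROV-1 replicates ran from -0.06 to 0.05. All 13 called genes of chromosome 18 were higher in OVTOKO, among them SS18. They were 12.4% of its genes, close to the 12.3% called over all genes, so their direction stood out and their number did not. On chromosome 19, 64 called genes were higher in OVMANA and 14 in OVTOKO, and on chromosome 8 the median was -0.53. DNA copy number was not measured in these libraries, and its part in these medians was not tested.

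**Figure D4:**
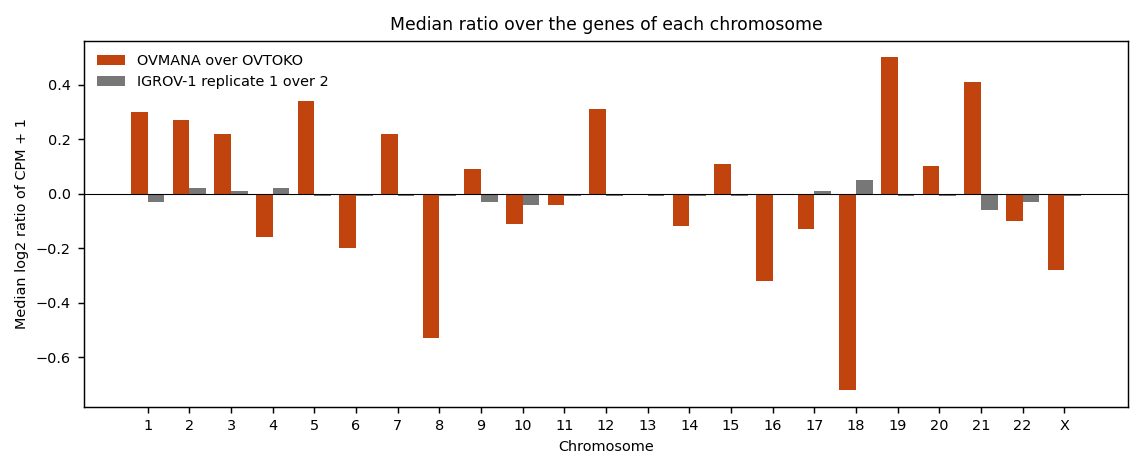
Median log2 ratio of CPM + 1 over the genes of each chromosome at 10 CPM or more, for OVMANA over OVTOKO (orange) and for IGROV-1 replicate 1 over replicate 2 (grey). Bars start at 0. Chromosomes 18 (-0.72), 8 (-0.53) and 19 (0.50) reach farthest from 0, and the grey bars stay within 0.06 of it.

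At the scale of neighbours, 3 runs of at least 4 consecutive genes with 10 CPM or more were all called in the same direction, and in all 3 OVTOKO was higher. The run on chromosome 13 (GRCh38, 99962964 to 100530437) held ZIC5 and ZIC2, a neighbouring pair of zinc finger factor genes of neural development, AL355338.1 and PCCA. ZIC2 was at 42.8 CPM in OVTOKO and 0 in OVMANA, and at 121 and 162 CPM in IGROV-1. The run on chromosome 19 (10270835 to 10339823) held ICAM1, AC011511.5, ICAM5 and ICAM3, all but AC011511.5 adhesion molecule genes. ICAM3 was at 202 CPM in OVTOKO, 2.14 CPM in OVMANA and at most 9.89 CPM in any other library. AC011511.5 lies on the opposite strand and overlaps the end of ICAM1, so their reads may not be separable. The run on chromosome 4 (155758992 to 157172090) held GUCY1B3, CTSO, PDGFC and GLRB, and PDGFC, a platelet-derived growth factor, was at 68.2 CPM in OVTOKO and 6.95 CPM in OVMANA.

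Long reads also give the share of a gene's counts taken by each transcript. Shares were compared for 2527 genes with at least 50 counts in both lines, and 60 (2.37%) had a transcript whose share differed by at least 30 percentage points. The same rule called 26 of 3521 genes (0.738%) between the IGROV-1 replicates, and 50 of the 60 could be compared there, of which 0 were called in both. The other genes of the 60 have no replicate value. Of the 60, 2 also differed 4-fold in level. That count is limited by the minimum of 50 counts in both lines. Of the 538 and 544 genes that differed 4-fold, 301 and 261 had 3 counts or fewer in the lower line. In the 60, the transcripts with the largest differences in share were set apart by a cassette exon in 17, by the first exon in 26 and by the last exon in 14, and a gene could count more than once. The shares of these kinds over all 2527 genes are not given here, so the counts do not show that any kind prevails. However, 10 of the 60 are identifiers that join several overlapping genes, so their transcripts may belong to different genes. All 7 that differed in both the first and the last exon were joined in this way. The leading transcript differed in 131 genes (5.18%), close to the 169 (4.8%) between the IGROV-1 replicates. Intervals for shares are 95% Wilson intervals and cover counting error only. edgeR's usage test with a Simes p per gene called 9 of 4730 genes (0.19%), of which 4 were among the 60. An unadjusted p under 0.05 was found for 53 of the 60, and for 428 of all 4730 genes. The 60 were chosen from the same 2 libraries that the test compares, so this overlap is no separate check. Without any 1 of the IGROV-1 libraries the usage test called 1 or 2 genes.

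Cassette exons are either kept or skipped whole. The 6 exons below are shown because the pair kept them at different rates. All 6 lie wholly in coding sequence and keep the reading frame, and each is given 5′ to 3′ on the strand of its gene from GENCODE 29 transcripts on GRCh38. Capitals mark the exon and lower case the 12 bases of the neighbouring exons on either side in the spliced transcript.
SPTAN1: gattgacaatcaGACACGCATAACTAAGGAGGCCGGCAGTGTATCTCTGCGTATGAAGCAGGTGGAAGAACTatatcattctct
SLK: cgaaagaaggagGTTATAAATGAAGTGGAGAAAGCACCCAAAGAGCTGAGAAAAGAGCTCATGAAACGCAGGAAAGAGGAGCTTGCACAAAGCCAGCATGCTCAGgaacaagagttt
BRD8: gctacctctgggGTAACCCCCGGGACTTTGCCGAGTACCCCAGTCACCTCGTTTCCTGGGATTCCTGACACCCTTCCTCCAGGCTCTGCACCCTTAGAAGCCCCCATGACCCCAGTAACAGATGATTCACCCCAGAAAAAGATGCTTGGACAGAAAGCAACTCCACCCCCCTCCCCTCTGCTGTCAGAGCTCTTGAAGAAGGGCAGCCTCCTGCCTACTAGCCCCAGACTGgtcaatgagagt
LRRFIP2: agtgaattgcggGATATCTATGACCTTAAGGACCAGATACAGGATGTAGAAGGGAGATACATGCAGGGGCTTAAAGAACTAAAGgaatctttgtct
RAC1: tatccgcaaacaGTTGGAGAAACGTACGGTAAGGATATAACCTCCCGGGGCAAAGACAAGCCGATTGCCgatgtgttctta
MYOF: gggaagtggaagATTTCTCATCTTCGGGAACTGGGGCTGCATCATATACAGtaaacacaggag

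The SPTAN1 exon (60 bases, exon 23, chr9:128592983-128593042, plus strand) belongs to the gene of alpha II spectrin, a scaffold under the cell membrane. It was kept in 88.7% of counts in OVMANA (82 to 93.2, 124 counts) and 20.9% in OVTOKO (13.7 to 30.5, 88 counts). The IGROV-1 replicates kept it in 24.2% and 10% and OVKATE in 90.8%, with the other 3 lines between 29.3% and 48.3%. OVMANA and OVKATE thus stood together at the high end. The SLK exon (93 bases, exon 13, chr10:104010816-104010908, plus strand) belongs to a kinase gene on the list of epithelial splicing targets. OVMANA kept it in 72.3% of 60 counts (59.9 to 82) and OVTOKO in 22% of 52 counts (12.9 to 35). OVMANA was here the highest of the 8 libraries, since the IGROV-1 replicates had 5.2% and 10.4% and the other 4 lines 5.8% to 24.6%. Of the 34 genes on that list, 19 could be compared, and SLK and TPM1 were the 2 called, beside 2.37% of all genes compared. The usage test did not call SPTAN1 or SLK (adjusted p = 0.135 and 0.378).

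The BRD8 exon (219 bases, exon 9, chr5:138168470-138168688, minus strand) lies in a bromodomain gene of a histone acetyltransferase complex. It was kept in 91% of 74 counts in OVMANA and 56.9% of 60 in OVTOKO, near the 55.4% and 56.8% of the IGROV-1 replicates. The LRRFIP2 exon (72 bases, exon 7, chr3:37091467-37091538, minus strand) went the opposite way, kept in 59% of 66 counts in OVMANA and 89% of 73 in OVTOKO. Both IGROV-1 replicates kept it in 76.2%, and SK-OV-3 had 0 counts of transcripts that could show it.

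The RAC1 exon (57 bases, exon 4, chr7:6398662-6398718, plus strand) is the insert that defines Rac1b, a splice form of the Rac GTPase that is active without the usual control. Its difference was under 30 points, and it is given because the usage test called RAC1 (adjusted p = 0.0034). OVMANA kept it in 10.7% of 1943 counts (9.45 to 12.2) and OVTOKO in 0.278% of 1120 (0.0963 to 0.799). The IGROV-1 replicates had 0.109% and 0.3% and the other 4 lines at most 4.66%, so OVMANA was the highest. The MYOF exon (39 bases, exon 17, chr10:93392917-93392955, minus strand), in the gene of the membrane repair protein myoferlin, is a counterexample. It was kept in 56.3% of counts in OVMANA and 88% in OVTOKO, but the IGROV-1 replicates differed almost as much, at 51.9% and 75.9%.

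**Figure D5:**
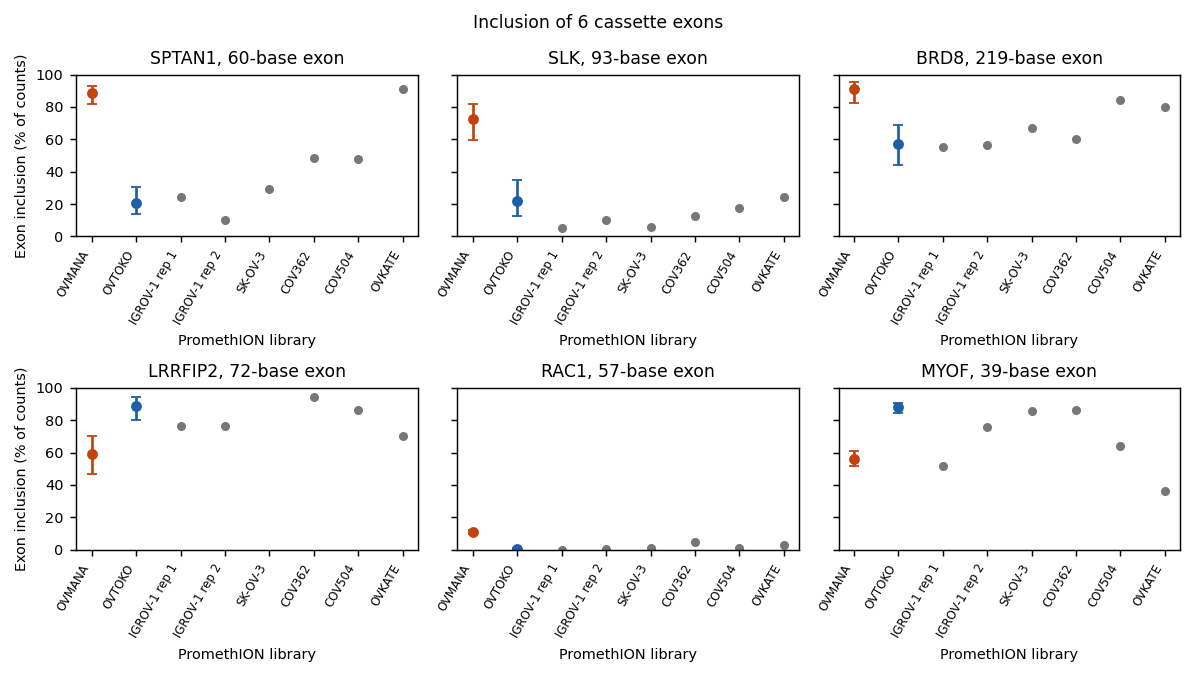
Percent of counts that keep each of 6 cassette exons in the 8 PromethION libraries, with OVMANA in orange and OVTOKO in blue (bars: 95% Wilson intervals, counting error only) and other libraries in grey. SPTAN1, SLK, BRD8 and RAC1 are kept more in OVMANA, LRRFIP2 and MYOF more in OVTOKO. The grey points of the IGROV-1 replicates lie 24.1 points apart for MYOF, and LRRFIP2 has no value in SK-OV-3.

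Among identifiers of single genes, the 8 with the largest differences in share at 100 counts or more in both lines were led by DAG1, S100A4 and NASP. DAG1 encodes dystroglycan, a matrix receptor, and its transcript ENST00000308775 took 46.9% of 409 counts in OVMANA and 95% of 130 in OVTOKO. The IGROV-1 replicates had 64.6% and 52.4%. S100A4, which also differed in level, had 94.3% of 4619 counts in ENST00000368716 in OVMANA and 49.6% of 183 in OVTOKO (42.4 to 56.8), against 74.2% and 68.9% in IGROV-1 (adjusted p = 3.62e-05 in the usage test). NASP encodes a histone chaperone with a long testis-type form. The 1017-base coding exon of that form (exon 6, chr1:45607321-45608337) was kept in 29% of 245 counts in OVMANA and 70.9% of 129 in OVTOKO, with 45.3% and 42.3% in the IGROV-1 replicates. The 4 other lines spread as widely, from 24.3% to 67.9%.

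SCOC, which encodes a coiled-coil protein of the Golgi, had its upstream form in OVMANA. ENST00000394203, which starts upstream of the usual form, took 37.3% of 200 counts in OVMANA (30.9 to 44.2), 0.0185% of 193 in OVTOKO and at most 0.653% in any other PromethION library (adjusted p = 0.0239). MTCH1, a mitochondrial outer membrane gene, had 41.8% of counts in ENST00000373616 in OVMANA and 82% in OVTOKO, above the 63.6% and 55.7% of IGROV-1. NDUFB1, a subunit gene of respiratory complex I, had 37.9% and 79.4% in ENST00000329559, with 73.5% and 73.9% in IGROV-1. The share of IKBIP transcript ENST00000299157 was 67.4% and 29.1%, and that of ADGRG1 transcript ENST00000567835 was 45.6% and 9.64%. TPM1, the actin-binding tropomyosin 1, had 35.2% of 710 counts in the internally started ENST00000404484 in OVMANA and 3.96% of 437 in OVTOKO (adjusted p = 0.0289). IGROV-1 stood near OVTOKO there, at 9.19% and 8.47%, and SK-OV-3 at 55.3% above OVMANA. The other genes called by the usage test were NACA, MEST, HLA-C, NQO1 and CRIP1, the last joined with overlapping genes under 1 identifier.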

How the data were processed

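Estimated counts for 99493 transcripts were deposited by the authors for each library. The deposited TPM column equals CPM (largest difference 5.6e-11), so it is not divided by length. Alignment with minimap2 2.24-r1122 and the build GRCh38 are per the submitters' processing notes. How transcripts were quantified and whether strand was used is not given in the sources used here, so overlapping and antisense genes are uncertain.

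Counts were summed over 57110 gene identifiers, of which 722 join several genes and were not named singly. Of the transcripts, 99363 (99.9%) were found in GENCODE 29. CPM used library totals of 1729782 to 3666224 counts. A gene was called at a 4-fold ratio of CPM + 1 with 10 CPM in the higher line, and a transcript share at 30 points with 50 counts in both lines. A fold against 0 counts was taken against 3 counts in that library. Intervals for folds are exact conditional binomial intervals at 95%. They and the floors cover counting error only. edgeR 4.0.16 (quasi-likelihood, TMM, Benjamini-Hochberg, 2-sided) and DESeq2 1.42.0 in R 4.3.3 used rounded counts of all 10 libraries. The IGROV-1 replicates differed by more than sampling noise (chi-square per degree of freedom 4.36 over 9659 genes on the PromethION). Scaling by TMM shifted the log2 ratio of OVMANA over OVTOKO by -0.01 before 1 CPM was added.

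Named genes were the 12 largest called protein-coding ratios each way at 50 CPM or more. Up to 4 called members per direction of each list and 10 fixed genes were added. For shares, the 8 largest at 100 counts and called splicing-list genes were named. Joined identifiers were left out of both rankings. The genes, lists and tests were chosen with earlier results of these data known. Some named genes are not reported here.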

Additional observations from a re-analysis of the deposited data

How the results depend on the processing

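The 1082 genes that differed 4-fold became 670 with 5 CPM added, 406 at a minimum of 50 CPM, 1713 with no minimum, 2846 at 2-fold and 650 at 8-fold, and stayed within 1.5 times under TMM (1138), DESeq2 size factors (1113) and 4 other settings. The 3 genes between IGROV-1 replicates became 7 without mitochondrial counts, 9 with 0.5 CPM added, 0 with 5 CPM added, 8 at 5 CPM, 0 at 50 CPM, 18 with no minimum, 97 at 2-fold and 0 at 8-fold. Of 309 values of the 103 named genes under TMM or an added 0.5 or 5 CPM, 297 kept their call, 12 lost it and 0 reversed; all 12 lost it with 5 CPM added, among them SS18, MUC16, OASL, ADM, ANGPTL4, SLC7A11, IGF1R, UHRF1 and HOXC10. In edgeR's test, 3249 genes became 742 with DESeq2 (1783 at an unadjusted p under 0.05), 2092 on the 8 PromethION libraries, and 1114 to 3997 when each IGROV-1 library was left out in turn, with 0 opposite signs. With the replicate block it was 5155, and 43 genes for usage. The deviations of replicates 1 and 2 correlated at 0.42 between instruments over 8717 genes, but there are 2 pairs and the labels do not say what the number shares. Usage calls (9) were 1 on the PromethION libraries, 75 by a gene-level F test, and 1 to 2 when each IGROV-1 library was left out. The 60 differences in share became 23 at 100 counts, 213 at 20 counts, 173 at 20 points and 23 at 40 points, beside 3, 145, 122 and 5 between IGROV-1 replicates. The correlation of the lines was 0.743 at 10 CPM, and 63 runs of neighbours appeared at 2-fold against 3. Depth limits shares: SLK rests on 60 and 52 counts. The causes were not tested.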

Other observations

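The 5 other lines were set beside the genes that part OVMANA and OVTOKO. Of the 538 genes higher in OVMANA, the median of the other lines lay nearer to OVTOKO for 304 (56.5%), and of the 544 higher in OVTOKO it lay nearer to OVTOKO for 283 (52.0%). With the mean of the other lines in place of the median the shares were 55.0% and 49.8%, and without IGROV-1 they were 51.5% and 52.6%.

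At 2-fold, the longest run of neighbouring genes in a single direction held 9 genes higher in OVMANA on chromosome 20 (GRCh38, 62938119 to 63657682), from GID8 to STMN3. Another run on chromosome 19 (44777869 to 44993341) held 7 genes around APOE, including APOC1, a further apolipoprotein gene, at 362 CPM in OVMANA and 8.67 CPM in OVTOKO, and BCAM, a laminin receptor, at 341 and 36.4 CPM. On chromosome 16 (56632233 to 56671129) a run of 5 metallothionein genes, from MT1M to MT1H, was higher in OVMANA. On chromosome 18 (23992773 to 31549008) a run of 7 genes that includes SS18 and DSG2 was higher in OVTOKO. These runs were picked after the values were seen.

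The ratio of OVMANA over OVTOKO correlated with transcript length at a Spearman coefficient of 0.03 over 8802 genes, against -0.20 for IGROV-1 replicate 1 over replicate 2 over 7392 genes. These values describe the libraries and carry no p-value.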
